A study of Mus musculus with 7 samples.

Results

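Solute carriers are membrane proteins that move ions, sugars, amino acids, metals, nucleotides and vitamins across the plasma membrane and the membranes of organelles, and they are named by family and member number. In heart muscle they clear calcium after each beat, hold intracellular pH, exchange ATP for ADP across the inner mitochondrial membrane and import fuel. The transcription factor Myc promotes cell growth and is known in other cells to raise several carriers of amino acids, glucose, lactate and folate. The genes described here are those whose symbol begins with Slc and a number. There were 123 such genes among the 7413 genes that could be named on the arrays, and 144 of the 24048 targets belonged to them. Of the 123 genes, 50 were detected on at least 3 arrays and were tested, which is 40.7%, against 45.8% of all named genes. Substrate classes below were assigned by family number, so the count of a class can include genes with another substrate.

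The hearts were 4 Myc-null and 3 wild type samples of mouse embryos, all titled E13.5 (embryonic day), although another label gives a window of E12.5-15.5. Each sample was hybridised to its own Illumina mouse reference bead array as 100 ng of total RNA. The labels do not give the allele, the strain, the cells in which Myc was removed, or whether samples came from separate embryos or litters, so p-values measure the spread between these 7 samples. RNA is called that of cardiac myocytes, but the protocol places dissected hearts in Trizol without separating cells, and in such bulk RNA fewer cells of a type and less RNA per cell cannot be told apart.

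The arrays detected between 8573 and 9678 targets each, where detected means a detection score of at least 0.99. No array detected the Myc target, at -22.9 ± 2.91 in Myc-null hearts (SD, n = 4) and -18.0 ± 14.4 in wild type hearts (SD, n = 3), so it gives no check of genotype (exact 2-sided permutation p = 0.6, where 35 splits allow no p below 0.0286). Heart muscle was present by its defining genes: of 17 listed markers 5 had a named target, and Myh6, Myh7, Myl7 and Atp2a2 were detected, while Ryr2 was detected on fewer than 3 arrays. Wild type 3 stood apart, with correlations to the other arrays of 0.927 to 0.938 across tested genes, while the highest correlation of each other array was 0.973 to 0.991, the lowest of these being that of Myc-null 2. Wild type arrays lay at one end of the chip and Myc-null arrays at the other, so position and genotype cannot be told apart.

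No solute carrier passed the test between the genotypes. By limma, a linear model over all 9066 tested genes and unnamed targets with Benjamini-Hochberg adjustment, 0 of 50 carriers had an adjusted p under 0.05, as did 0% of everything tested, and the smallest adjusted p of a carrier was 0.76. At an unadjusted p under 0.05 stood 2 of the 50 (4%), against 5.35% of all tested. They were 1 carrier with a higher Myc-null mean, Slc35e2, against 3.39% of all tested, and 1 with a lower mean, Slc25a44, against 1.96%. The genotypes did not overlap for 2 of the 50 carriers, against 6.83% of all tested. Myc-null values lay above for 1, Slc25a22, against 4.07%, and below for 1, Slc25a44, against 2.76%. Of the 50 log2 differences, 27 were above 0, 22 below it, and Slc25a25 lay at the signal floor on all arrays; the share above 0 was 54%, against 54.5% of all tested. The median difference of the carriers was 0.02, against 0.03 over all tested. This split followed the scaling, since 20 of the 50 had a higher Myc-null mean after quantile normalization and 20 after median scaling. The shift was not particular to the carriers, as the median over all tested moved to -0.03 under both.

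The differences that these 7 arrays leave room for were moderate. The median standard error of a carrier's log2 difference was 0.19 and the median 95% confidence interval reached 0.44 to either side. For 45 of the 50 carriers the interval lay wholly between -1 and 1, that is, it left out a doubling and a halving on the scale used. That count includes carriers raised to the signal floor on most arrays, where the floor narrows the interval and a doubling of signal cannot be left out. Slc25a25, at the floor on all 7 arrays, had an interval of -0.17 to 0.17. Slc12a8, at the floor on 5, had -0.39 to 0.15, with mean signals of 34.1 in Myc-null and 59.7 in wild type hearts. The largest difference in size was 0.71, that of Slc25a36, and 4 carriers differed by at least 0.5 in size, where 8.39% of everything tested did.

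**Figure D1:**
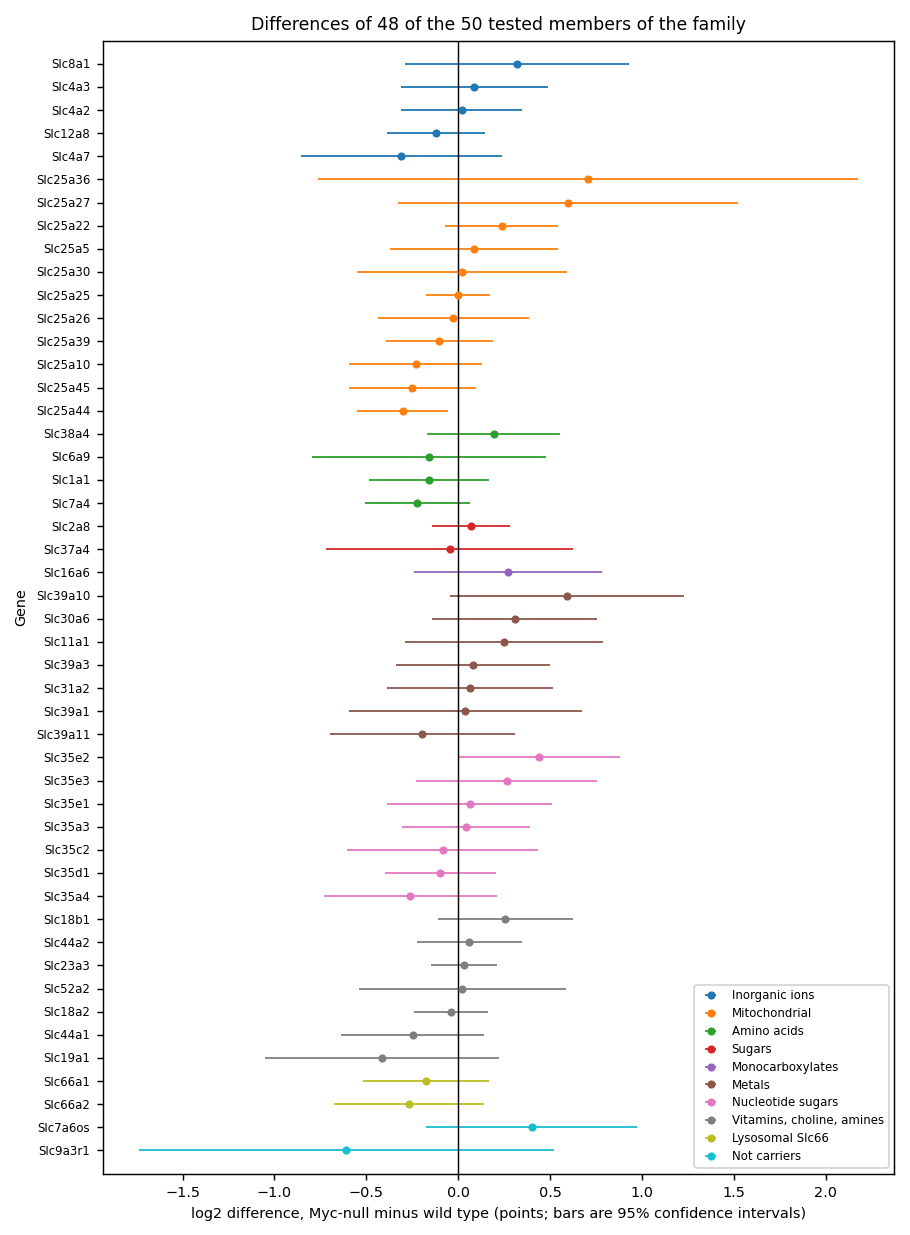
Log2 difference (Myc-null minus wild type) of 48 of the 50 tested members, on the x axis, with genes in rows, grouped and coloured by substrate class; points are limma estimates from 4 Myc-null and 3 wild type arrays, and bars are 95% confidence intervals. The bars of Slc25a44 and Slc35e2 leave out 0, and none of the genes passed after adjustment.

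Myc binds DNA with its partner Max at the E-box CACGTG, so RefSeq promoter windows (GRCm38.p6, 250 bases before to 50 after a gene's start) were searched for those letters, which read the same on both strands. Of the 39 tested carriers with a window, 4 held the motif (10.3%), against 11.9% of 2741 tested named genes and 8.09% of all 27025 genes with a window. They were Slc25a36, Slc35e3, Slc31a2 and Slc39a11, with log2 differences of 0.71, 0.26, 0.06 and -0.20, none of which passed. The stretches around the motif are shown for Slc25a36 and Slc35e3, where it lies upstream of the start, with the motif in capitals. In Slc25a36 it begins 187 bases upstream of the start, in chr9:97111178-97111273 on the minus strand, and in Slc35e3 it begins 80 bases upstream, in chr10:117746388-117746483 on the minus strand. A match of letters does not show binding.
Slc25a36: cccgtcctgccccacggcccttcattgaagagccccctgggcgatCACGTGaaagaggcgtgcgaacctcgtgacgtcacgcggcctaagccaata
Slc35e3: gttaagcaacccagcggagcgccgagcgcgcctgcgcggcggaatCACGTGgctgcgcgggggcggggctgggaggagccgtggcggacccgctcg

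Genes of the families classed as inorganic ion carriers were mostly undetected, with 6 of 25 tested. Slc8a1, the sodium-calcium exchanger that removes calcium from heart muscle cells after contraction, had signals of 3047, 2256, 3546 and 4323 in Myc-null hearts, against 3072, 2786 and 1966 in wild type hearts. The groups overlapped, with Myc-null 4 highest and wild type 3 lowest of all. Its log2 difference was 0.32 (SE 0.26, limma adjusted p = 0.763). It was 0.13 without wild type 3, 0.18 without Myc-null 4 and 0.49 without Myc-null 2. Slc4a3, a chloride-bicarbonate exchanger of heart and brain, differed by 0.09 (95% interval -0.31 to 0.49). It measured 443, 344, 388 and 545 in Myc-null hearts, against 387, 434 and 376 in wild type hearts. The other Slc4a3 target was detected on 0 arrays. Slc4a2, a relative found in most cells, averaged 690.5 ± 22.1 in Myc-null hearts (SD, n = 4) and 689.7 ± 139 in wild type hearts (SD, n = 3). The sodium-bicarbonate cotransporter Slc4a7 had a difference of -0.31 (95% interval -0.85 to 0.24). Slc12a8 was detected on 3 arrays and lay at the floor on 5. The other 19 genes of the class were detected on 0 arrays. Among them were Slc8a3, the exchanger of skeletal muscle and brain, and the kidney transporters Slc12a3 and Slc34a1.

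Mitochondrial carriers, which move nucleotides, cofactors and metabolites across the inner membrane, were the class with most tested members, 12 of 17. Of these, 5 had higher and 6 lower Myc-null means, and the median difference was -0.01. Slc25a5, an ADP/ATP exchanger, gave signals of 9897, 8450.5, 11067 and 14156 in Myc-null hearts, against 11029.5, 10666 and 8692 in wild type hearts. Its difference was 0.09 (95% interval -0.37 to 0.54). Myc-null 4 was the highest array, and Myc-null 3 lay just above the highest wild type array. Without Myc-null 4 the difference was -0.05, without wild type 3 it was -0.02, and without Myc-null 2 it was 0.20. Slc25a39, which imports glutathione into mitochondria, averaged 4271 ± 348 in Myc-null hearts (SD, n = 4) and 4597 ± 568 in wild type hearts (SD, n = 3), a difference of -0.10.

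Slc25a44, a carrier of branched-chain amino acids, had the smallest unadjusted p of the family. It measured 173, 212, 189 and 173 in Myc-null hearts, against 222, 229 and 237 in wild type hearts. All Myc-null values lay below all wild type values, Myc-null 2 being the nearest to them. The log2 difference was -0.30 (SE 0.10; unadjusted p = 0.0231, limma adjusted p = 0.76), and it stayed between -0.37 and -0.27 when any sample was left out. Slc25a22, a mitochondrial glutamate carrier, was the other gene without overlap, with 101, 132, 95.2 and 115 in Myc-null hearts, against 92.1, 94.3 and 93.1 in wild type hearts. Its wild type values were nearly equal and its difference was 0.24 (SE 0.13; limma adjusted p = 0.76). The dicarboxylate carrier Slc25a10 and the carrier Slc25a45 had lower means, with differences of -0.23 (95% interval -0.59 to 0.13) and -0.25 (-0.60 to 0.10). Slc25a26, which imports S-adenosylmethionine, differed by -0.03, and Slc25a30 by 0.02.

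**Figure D2:**
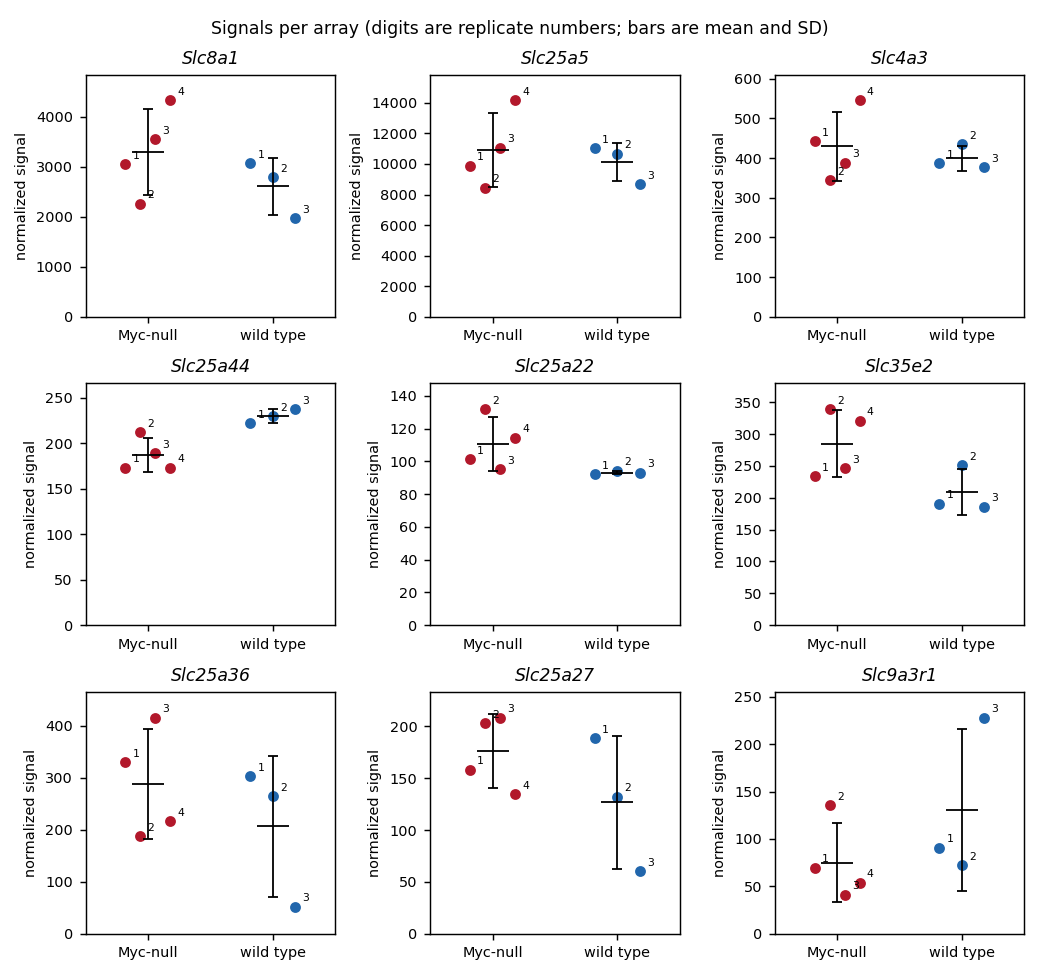
Normalized signal (y axis, from 0) of 9 members on each array, Myc-null on the left and wild type on the right of each panel; dots are arrays with their replicate number, and bars are the mean and SD. Slc25a44 is the panel in which all Myc-null dots lie below the wild type dots, and wild type 3 lies apart at 52.1 for Slc25a36 and at 228 for Slc9a3r1.

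The widest spread of any carrier was that of Slc25a36, which carries pyrimidine nucleotides into mitochondria. Its signals were 330.4, 188, 416 and 216 in Myc-null hearts, against 303, 265 and 52.1 in wild type hearts. Wild type 3 lay below the floor of 58.2, while the other 6 arrays ran from 188 to 416. The log2 difference of 0.71 (SE 0.62, limma adjusted p = 0.779) came to -0.05 without that array and to 1.14 without wild type 1. Slc25a27, an uncoupling protein best known from the brain, was also lowest on wild type 3, with 158, 203, 209 and 135 in Myc-null hearts, against 188, 132 and 60.4 in wild type hearts. Its difference was 0.60 (SE 0.39), and it was 0.14 without wild type 3 and 0.96 without wild type 1. The second Slc25a27 target was detected on 0 arrays.

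Amino acid carriers were tested in 4 of 18 genes. Slc38a4, a sodium-coupled carrier of neutral amino acids, had signals of 453, 561, 546 and 628 in Myc-null hearts, against 435, 563 and 438 in wild type hearts, a difference of 0.19 (95% interval -0.17 to 0.55). Its other detected target, dimmer and present on 4 arrays, ran from 42.5 to 72.3 in Myc-null hearts and from 14.0 to 55.4 in wild type hearts. Slc6a9, the glycine transporter GlyT1 of nerve and red cells, measured 174, 235, 179 and 167 in Myc-null hearts, against 144, 203 and 310.2 in wild type hearts. Wild type 3 was highest and wild type 1 lowest, so the wild type samples enclosed all Myc-null samples. The difference of -0.16 was 0.13 without wild type 3 and -0.43 without wild type 1. Slc7a4, an orphan member of the cationic amino acid family, and the glutamate carrier Slc1a1 had differences of -0.22 (95% interval -0.51 to 0.06) and -0.16 (-0.49 to 0.17). The other Slc1a1 target was detected on 0 arrays. The 13 carriers detected on 0 arrays included the cationic carriers Slc7a1 and Slc7a2, the cystine carrier Slc7a11 and the brain glutamate carrier Slc1a2.

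The families classed as sugar carriers gave 2 tested genes of 10. Slc37a4, which brings glucose 6-phosphate into the endoplasmic reticulum, measured 162, 101, 117 and 161 in Myc-null hearts, against 91.3, 165 and 170.2 in wild type hearts. The spread within each genotype exceeded the difference of -0.05 (95% interval -0.72 to 0.63). Slc2a8, an intracellular glucose transporter, lay near the floor, at 63.9 ± 2.04 in Myc-null hearts (SD, n = 4) and 53.2 ± 11.6 in wild type hearts (SD, n = 3). Among the sodium-coupled Slc5 genes 0 were detected, among them the intestinal and renal glucose carriers Slc5a1 and Slc5a2. In the class of monocarboxylate, fatty acid and bile acid carriers 1 of 7 genes was tested, Slc16a6, with 104, 106, 64.4 and 79.8 in Myc-null hearts, against 87.2, 64.3 and 66.3 in wild type hearts (difference 0.27, 95% interval -0.24 to 0.78). The bile acid carrier of liver, Slc10a1, and the fatty acid carrier of liver and kidney, Slc27a2, were detected on 0 arrays.

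Metal carriers had 6 of 7 tested genes with higher Myc-null means, where 54.5% of all tested had one, and 0 passed. The median difference was 0.08, where all tested genes had 0.03. Slc39a10, a zinc importer of the plasma membrane, had the smallest p among them, with signals of 111, 139, 80.0 and 144 in Myc-null hearts, against 72.7, 103 and 59.9 in wild type hearts. Myc-null 3 lay below wild type 2, so the groups overlapped, and the difference was 0.59 (SE 0.27; unadjusted p = 0.0628, limma adjusted p = 0.76). Slc30a6 loads zinc into the Golgi apparatus. It measured 306, 376, 308 and 298 in Myc-null hearts, against 199.6, 259 and 335 in wild type hearts. Its difference of 0.31 was 0.12 without wild type 1 and 0.50 without wild type 3. The zinc importer Slc39a1 averaged 813 ± 251 in Myc-null hearts (SD, n = 4) and 783 ± 200.2 in wild type hearts (SD, n = 3), with Myc-null 4 at 1175 and wild type 3 at 1006. Its difference of 0.04 turned below 0 after quantile normalization, median scaling and neqc, so the count of higher means depends on the scaling. Slc39a11 was the member with a lower mean, at -0.20, and Slc39a3 and the copper carrier Slc31a2 differed by 0.08 and 0.06.

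Slc11a1, a metal pump of macrophage phagosomes, was detected on all arrays by 1 of its 3 targets and on 0 arrays by the others, so its presence rests on that target. The signals were 261, 459, 325 and 407 in Myc-null hearts, against 247, 301 and 358 in wild type hearts. The difference was 0.25 (95% interval -0.29 to 0.79). It was 0.11 without wild type 1, 0.13 without Myc-null 2 and 0.40 without Myc-null 1. Of 7 leukocyte markers 2 were tested, Csf1r and Lyz2, with summed signals of 264 to 297 in Myc-null hearts and 286 to 295 in wild type hearts. Csf1r, a receptor of macrophages, had 28.3, 108, 47.7 and 62.7 in Myc-null hearts, against 31.7, 22.6 and 129 in wild type hearts. Its 3 highest arrays, wild type 3, Myc-null 2 and Myc-null 4, were also the 3 highest of Slc11a1, in another order. Csf1r was detected on 3 arrays and lay at the floor of 58.2 on 4, so those 3 are simply the arrays where it exceeded the floor. Lyz2, a lysozyme, ran the other way on wild type 3, where it was lowest, at 166, while Cd68 and Ptprc were detected on fewer than 3 arrays. Their part in the Slc11a1 values was not tested.

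Nucleotide sugar and nucleoside carriers were tested in 7 of 11 genes. Myc-null means were higher for 4 and lower for 3. Slc35e2, an orphan of this family, was the other gene with an unadjusted p under 0.05. It measured 234, 339, 246 and 321 in Myc-null hearts, against 191, 251 and 186 in wild type hearts, and wild type 2 lay above 2 of the Myc-null samples. The log2 difference was 0.44 (SE 0.18; unadjusted p = 0.049, limma adjusted p = 0.76). In the authors' deposited table Slc35e2 had a score of 15.2, and it was the 1 family target with a score of 13 or more in size, against 4.53% of everything tested. Its relative Slc35e3 had 438, 729, 438 and 540.2 in Myc-null hearts, against 376, 476 and 465 in wild type hearts, and Myc-null 2 was the highest array. The difference was 0.26, and it was 0.10 without Myc-null 2, 0.16 without wild type 1 and 0.35 without Myc-null 3. Slc35a4 averaged 573 ± 110.0 in Myc-null hearts (SD, n = 4) and 684 ± 127 in wild type hearts (SD, n = 3), a difference of -0.26, and Slc35c2 differed by -0.08. The genes with a known substrate, Slc35a3 for UDP-N-acetylglucosamine and Slc35d1 for UDP-glucuronic acid, were near the floor, with 3 and 5 arrays at or below it.

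Carriers of vitamins, choline, amines and organic ions were tested in 7 of 17 genes. Slc19a1, the reduced folate carrier, was the 1 tested gene among 9 carriers listed as Myc-responsive in other cells. Its signals were 94.2, 142, 81.6 and 80.8 in Myc-null hearts, against 98.8, 126 and 173 in wild type hearts. The difference was -0.41 (SE 0.27, limma adjusted p = 0.76). It was -0.20 without wild type 3, the highest array, and -0.61 without wild type 1. Of the other 8 listed carriers Slc7a1 was detected on 0 arrays, and 7 had no target that could be named. The choline carrier Slc44a1 had 166, 115, 158 and 157 in Myc-null hearts, against 170.2, 155 and 203 in wild type hearts. Its difference of -0.25 was -0.13 without Myc-null 2, -0.14 without wild type 3 and -0.34 without wild type 2. Slc44a2 averaged 786 ± 68.7 in Myc-null hearts (SD, n = 4) and 755 ± 88.1 in wild type hearts (SD, n = 3) by its brighter target, and the riboflavin carrier Slc52a2 differed by 0.02 (95% interval -0.54 to 0.59). Slc18b1, a vesicular polyamine carrier, had a difference of 0.26 (95% interval -0.11 to 0.62). All of the Slc22 organic ion carriers of kidney and liver on the arrays were detected on 0 arrays.

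The family Slc66 lay outside the listed classes, and both of its genes that could be named on the arrays had lower means. Slc66a2 measured 667, 744, 818 and 598 in Myc-null hearts, against 731, 781 and 1062 in wild type hearts. Its difference of -0.27 was -0.11 without wild type 3 and -0.38 without wild type 1. Slc66a1, an exporter of cationic amino acids, was above the floor on wild type 3 and at or below it on the other 6 arrays. Its difference of -0.17 was therefore 0 without wild type 3. A further pair of genes carries the symbol without being carriers. Slc7a6os, named for lying opposite Slc7a6, had 333, 599.7, 317 and 489 in Myc-null hearts, against 310.0, 298 and 347 in wild type hearts, a difference of 0.40 (95% interval -0.18 to 0.98). Slc9a3r1 encodes NHERF1, a scaffold under the membrane of epithelial cells. Without these 2 genes the count of higher means was 26 of 48 and the median difference 0.02.

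The carriers were next set out by array. Wild type 3 was the highest array for 16 of the 50 carriers, against 24.2% of all tested, and the lowest for 6, against 27.8%. Myc-null 2 was the lowest for 11, against 15.5% of all tested, and the highest for 9, against 19.2%. Myc-null 4 was the highest for 9, against 23.0% of all tested, and the lowest for 4, against 10.6%. Members highest on wild type 3 included Slc9a3r1, Slc19a1, Slc6a9 and the Slc66 genes. Those lowest on it included Slc25a36, Slc25a27, Slc39a10, Slc8a1 and Slc35e2.

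**Figure D3:**
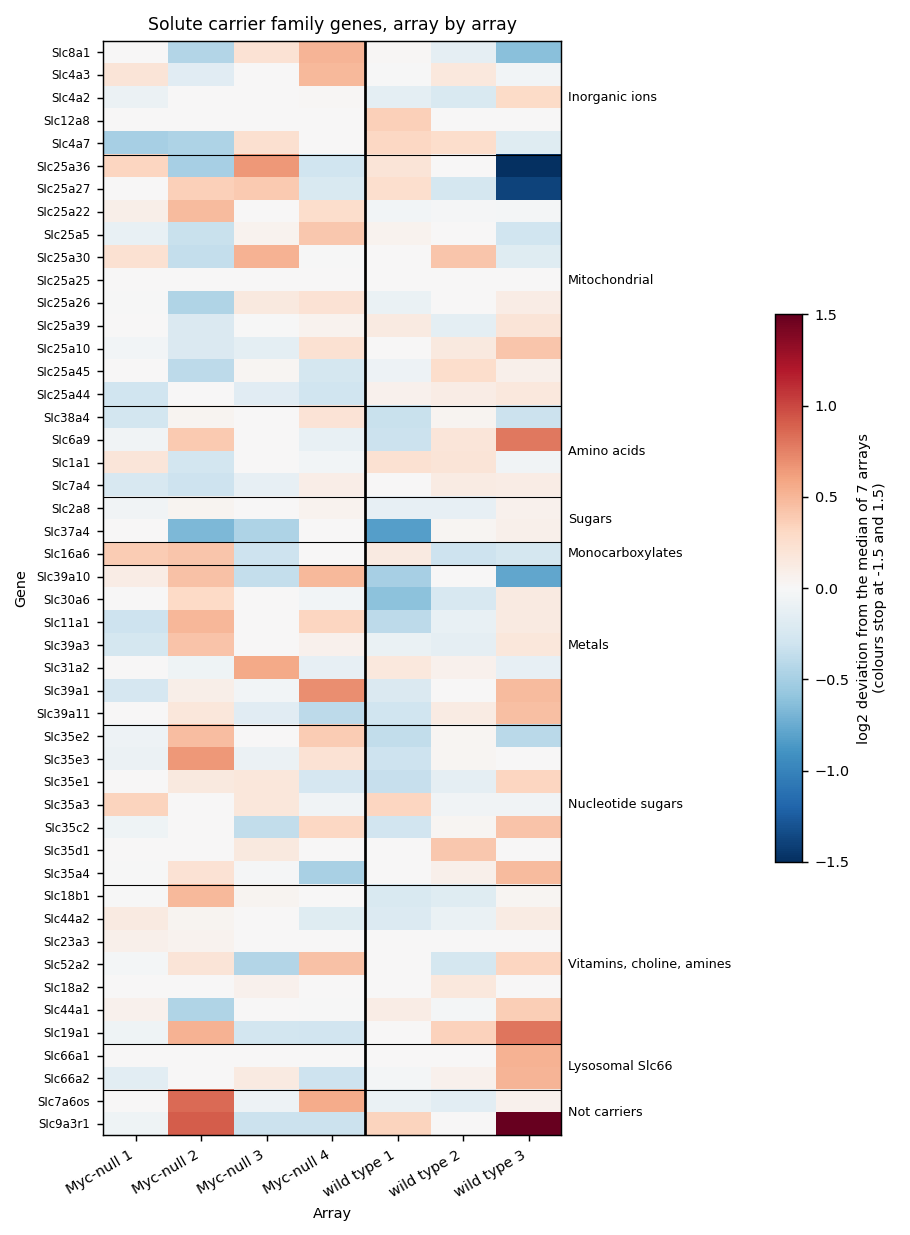
Log2 deviation of 48 of the 50 tested members (rows, by substrate class) each from its own median over the 7 arrays (columns, Myc-null on the left), after the signal floor; red is above and blue below the median. The darkest cells are in the wild type 3 column, blue for Slc25a36 and Slc25a27 and red for Slc9a3r1.

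Slc8a1, Slc25a5 and Slc4a3 were set beside the heart muscle markers, a comparison chosen for description after the values were seen. The summed signal of the 4 tested markers (of 17 listed) ran from 62400.4 to 93934 in Myc-null hearts and from 60295 to 79456 in wild type hearts. It was highest on Myc-null 4 and lowest on wild type 3 and then Myc-null 2. Myh7, a myosin heavy chain, made up most of the sum, with 42504.5 to 72119 over the 7 arrays. Atp2a2, the calcium pump of the sarcoplasmic reticulum, had the same highest and lowest arrays as Myh7. The other 2 tested markers did not share both arrays. Myh6 was highest on Myc-null 1, at 2089, and lowest on wild type 2, at 792, and Myl7 was highest on Myc-null 4 but lowest on wild type 2, at 7628. Slc8a1 and Slc25a5 were also highest on Myc-null 4, and their 2 lowest arrays were wild type 3 and Myc-null 2, with wild type 3 the lowest for Slc8a1 and Myc-null 2 for Slc25a5. Slc4a3 was highest on Myc-null 4 as well, and its 2 lowest arrays were again Myc-null 2, at 344, and wild type 3, at 376. Such extremes were common on these arrays. Of all tested, 23.0% were highest on Myc-null 4, 27.8% lowest on wild type 3 and 15.5% lowest on Myc-null 2. The part of muscle content in the values of these carriers was not tested.

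Slc9a3r1 was set beside markers of the epicardium, again after its values were seen. Its signals were 69.5, 136, 41.1 and 54.0 in Myc-null hearts, against 91.0, 72.5 and 228 in wild type hearts. The log2 difference was -0.61 (SE 0.47, limma adjusted p = 0.762). It was -0.11 without wild type 3 and -0.94 without wild type 2. Of 8 markers of the epicardium, the epithelial cover of the heart, 5 were tested, and their summed signal ran from 1238 to 1965 in Myc-null hearts and from 1354 to 2253 in wild type hearts. Wild type 3, Myc-null 2 and wild type 1 were, in that order, the 3 highest arrays both for the sum and for Slc9a3r1. The listed markers did not move together. The epithelial genes Upk3b, Krt8 and Krt19 were highest on wild type 3, whereas the transcription factor Wt1 was lowest there, at 418, and highest on Myc-null 3, at 559. Tbx18 was also highest on Myc-null 3, at 101, and lowest on Myc-null 2, at 57.8. Slc19a1 and Slc6a9 were highest on wild type 3, then Myc-null 2, then wild type 2. The 18S ribosomal RNA target had its 3 highest arrays in that same order, with signals of 702, 1523, 759 and 761 in Myc-null hearts, against 902, 914 and 2682 in wild type hearts. The part of epicardial content and of RNA quality or amplification in these values was not tested.

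**Figure D4:**
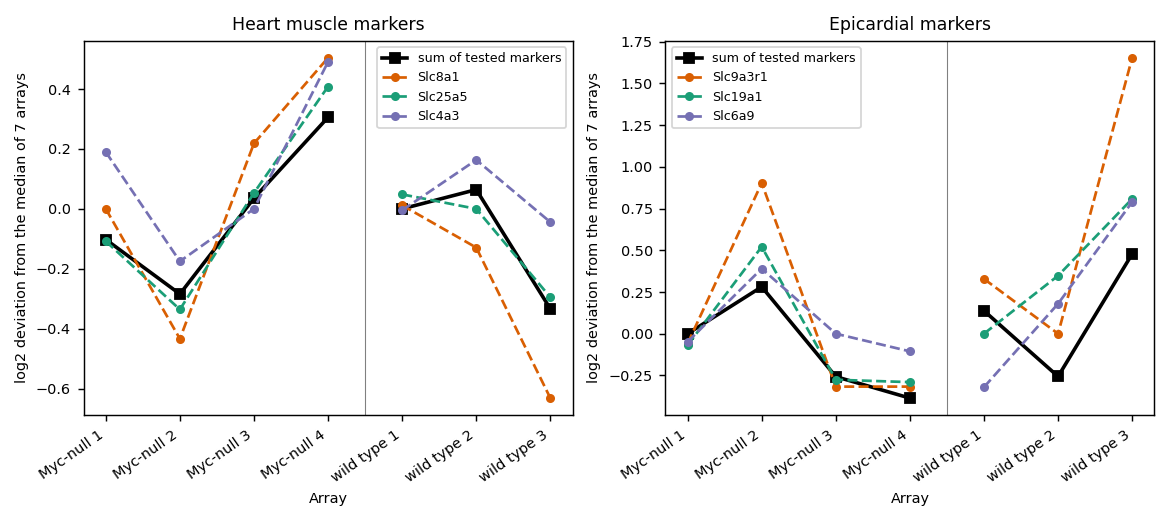
Log2 deviation from the median of the 7 arrays (y axis) for the summed signal of tested heart muscle markers with Slc8a1, Slc25a5 and Slc4a3 (left), and of tested epicardial markers with Slc9a3r1, Slc19a1 and Slc6a9 (right); arrays are on the x axis, Myc-null first, and lines join arrays of a genotype only to guide the eye. Slc8a1, Slc25a5, Slc4a3 and the muscle marker sum, most of which is Myh7, are highest on Myc-null 4. Slc9a3r1 and the epicardial sum are highest on wild type 3, where the marker Wt1 is lowest.

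Of 7 listed red-cell carriers, Slc25a39 and Slc6a9 were tested, with differences of -0.10 and -0.16, Slc14a1 was detected on 0 arrays, and 4 had no target that could be named. The summed signal of 5 tested erythroid genes (of 11 listed) ran from 84731 to 122152 in Myc-null hearts and from 77480.5 to 92921 in wild type hearts. It was highest on Myc-null 2, where Slc25a39 was lowest, at 3765.

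Of a list of carrier partners and other proteins of transporter families, 9 of 35 were tested, and 0 passed. Myc-null means were higher for 3 and lower for 6, where 54.5% of all tested had a higher mean. Their median difference was -0.05, against 0.03 over all tested. Vdac3, a pore of the outer mitochondrial membrane, measured 334, 384, 349.8 and 453 in Myc-null hearts, against 263, 347 and 296 in wild type hearts (difference 0.33, limma adjusted p = 0.76). Slco3a1, an organic anion transporter of the related Slco family, averaged 140.5 ± 20.3 in Myc-null hearts (SD, n = 4) and 162 ± 23.3 in wild type hearts (SD, n = 3), a difference of -0.21.

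The 73 carriers that were not tested were detected on 0 arrays in 68 cases and on 1 or 2 arrays in 5, namely Slc10a4, Slc16a10, Slc35f5, Slc38a9 and Slc39a9. Slc10a4, best known from synaptic vesicles of neurons, had signals of 15.7, 64.8, 16.7 and 36.2 in Myc-null hearts, against 3.94, 12.9 and 146 in wild type hearts. It was detected on Myc-null 2 and wild type 3, the arrays that also stood apart for the tested carriers. Its other target was detected on 0 arrays. No carrier was detected on all arrays of a genotype and on none of the other.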

How the data were processed

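Per the labels, RNA of 4 Myc-null and 3 wild type hearts was amplified and hybridised to Illumina bead arrays. Single-array files carry unnormalized intensity from BeadStudio 1.5.1.3, per the file headers, with a detection score given as a fraction (1 minus a detection p-value). Intensity in the authors' deposited matrix had undergone rank-invariant normalization, with BeadStudio 1.5.0.34 per the submitters' processing notes. It was a straight-line function of the raw signal, with factors of 0.809 to 1.43. The authors' deposited difference score has no stated direction, and its sign was that of the log2 difference for 46 of the 50 tested carriers.

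Target identifiers with 1 or 2 leading zeros were read as NCBI gene identifiers (8884 of 9523, 93.3%, matched GRCm38.p6), and every gene name rests on this. Deposited signals were raised to at least 58.2 before log2; this floor is the arrays' median 5th percentile among detected targets. Fold changes so understate dim genes. Targets detected on at least 3 arrays were kept, with the brightest per gene, and 4 bacterial controls were left out. Signals of different targets were ranked to choose a gene's target and the brightest of a class, and summed for marker lists, without correction for how strongly each target binds. Precision is bounded by how many arrays there were.

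The genotypes were set against each other by limma 3.58.1 (R 4.3.3; group as the only term, 2-sided), a step tested on simulated data. Intervals are at 95%. The members and lists were chosen with earlier results of these data known. Carriers named by rule are the 3 brightest of each class, the 8 with the smallest p in each direction, listed Myc-responsive and red-cell carriers, those with a deposited score of 13 or more in size, the 5 with the widest array deviation, Slc8a1, and the 2 list partners with the smallest p; a further part of the rule, detection in 1 genotype alone, named 0. Values of Slc10a4, Slc12a8, Slc1a1, Slc25a25, Slc25a26, Slc25a30, Slc31a2, Slc35a3, Slc35d1, Slc39a11 and Slc39a3 fall outside that rule and were added after they were seen. Of the tested carriers, 2 are counted but not reported by name here. Alternatives were quantile normalization, median scaling, neqc on raw signals, log2(signal + 50), other filters, every target, a replicate block and leaving out samples. Same-numbered samples did not deviate together (correlations 0.17, -0.26 and -0.31), so the numbers were not taken as pairs. All arrays were on 1 chip, so a slide block was not possible.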

Additional observations from a re-analysis of the deposited data

Results flagged for a closer look

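Of 37 named genes, 3 had 1 Myc-null array set off from its group by Dixon's ratio at the 95% level. Chance gives about 1 in 20 for genes chosen without regard to their values. These genes were named partly by their p-values and array deviations, so that rate need not hold for them. The array set off was Myc-null 2 each time. For 21.8% of everything tested, Myc-null 2 was the array farthest from the median of the 7. That is a distance over 7 arrays, not Dixon's ratio within a group. The share of everything tested set off by Dixon's ratio was not worked out, so the 3 genes cannot be set against it. Slc18b1 was at 6.81 there on the log2 scale, a signal of 112, while the rest of the group ran from 79.1 to 82.0. Slc30a6 was at 8.55, a signal of 376, while the rest ran from 298 to 308. Slc44a1 was at 6.85, a signal of 115, while the rest ran from 157 to 166.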

How the results depend on the processing

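Limma called 0 genes and 0 carriers under every alternative run. Carriers at an unadjusted p under 0.05 numbered 2, and 1 after quantile normalization, median scaling, neqc or with no filter, 0 with log2(signal + 50), and 1 to 4 when a sample was left out. Of all 9066 tested, 485 stood there, and 511 after quantile normalization, 515 after median scaling, 456 by neqc and 441 with log2(signal + 50). Leaving out a sample gave 311 to 718. With no filter it was 390 of 22564, a larger set that takes in dim targets, dim carriers among them. The carriers' median difference of 0.02 was -0.0348 after quantile normalization, -0.0387 after median scaling, -0.0341 by neqc, -0.0330 with the replicate block, in which Myc-null 4 has no partner, and -0.0330 to 0.0362 when a sample was left out. Over all tested the median of 0.0258 moved likewise, to -0.0299 after quantile normalization, -0.0340 after median scaling and -0.0310 by neqc. Directions turned as follows, all within uncalled differences. Slc2a8 was at -0.0016 (quantile) and -0.0061 (median scaling). Slc39a1 was at -0.0027 (quantile), -0.0379 (median scaling), -0.0028 (neqc) and -0.15 (replicate block). Slc4a2 was at -0.0328, -0.0563 and -0.0333, and Slc52a2 at -0.0741, -0.0537 and -0.0649, after quantile, median scaling and neqc, with Slc52a2 at -0.11 under the block. Slc44a2 was at -0.0158 (median scaling). With the replicate block Slc25a5 was at -0.0479 and Slc4a3 at -0.0332. Without wild type 3 and Myc-null 2 together, chosen after seeing the data, 33 of 50 carriers had higher means. The share of all tested with a higher mean was not worked out for that setting. In it 3 carriers had an unadjusted p under 0.05, against 366 of all 9066 tested. Slc25a39 was at 0.0263 there, Slc35c2 at 0.0898, Slc37a4 at 0.24 and Slc6a9 at 0.0190. When a sample was left out, ranges that crossed 0 were those of Slc25a36 (-0.0526 to 1.14), Slc25a5 (-0.0479 to 0.20), Slc35c2 (-0.26 to 0.0998), Slc37a4 (-0.34 to 0.11), Slc39a1 (-0.15 to 0.23), Slc44a2 (-0.0110 to 0.15), Slc4a2 (-0.0804 to 0.18), Slc4a3 (-0.0332 to 0.19), Slc52a2 (-0.12 to 0.18) and Slc6a9 (-0.43 to 0.13). The cause of these turns was not tested. Signal over background limits the 14 tested carriers with at least 1 array at the floor.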
